A study of Homo sapiens with 32 samples.

Results

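The 78 mitochondrial ribosomal protein genes were taken by name from 19970 protein-coding genes on chromosomes 1 to 22 and X of the GENCODE 44 annotation of hg38: each symbol starts with MRPL or MRPS followed by a digit. By the list of subunits used here, 51 encode proteins of the large subunit, MRPS30 and MRPS18A included, and 26 encode proteins of the small subunit. MRPS36 carries the name but is known as a component of the 2-oxoglutarate dehydrogenase complex, and it was kept as a member outside both subunits. No member was chosen by a measured value, although the family and the other gene lists were chosen with earlier results of these data known.

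The mitochondrial ribosome translates the few messages of the mitochondrial genome, which code for core subunits of the respiratory chain and of ATP synthase. Its RNAs are made inside the organelle, whereas all of its proteins are encoded in the nucleus, translated in the cytosol and imported. NRF1 (nuclear respiratory factor 1) is a classical regulator of nuclear genes for mitochondrial proteins. SP1 binds GC-rich boxes near transcription start sites, YY1 is a zinc finger protein that binds close to start sites, and ZNF143 is a zinc finger activator of many housekeeping promoters.

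The measurement was chromatin immunoprecipitation followed by sequencing (ChIP-seq), which recovers crosslinked DNA fragments bound by a protein and places each binding site by its peak summit. All 32 samples came from HEK_CloneZD29, 1 clone of HEK293T (a human cell line derived from embryonic kidney) in which ZNF143 carries an inducible degron, a tag that lets dTAGV-1 send the protein to degradation. For each target one group was untreated and one received 50 nM dTAGV-1 (written 50nm in the labels) for 30 minutes. Groups held 4 samples each for SP1, YY1 and NRF1 (labelled Nrf1), and 2 each for ZNF143, precipitated through its HA tag, and for a mock precipitation. The files used here were 4 summit lists, 1 per target, with no value per sample or per treatment. The effect of ZNF143 degradation on these genes was therefore not measured here, no test over samples could be made, and all results below are descriptions of genes within the lists. Samples of both treatments carry the name of the ZNF143 or SP1 list in their labels, whereas the origin of the YY1 and NRF1 lists by sample was not given in the sources used here. Mock samples were not analysed here, and read depth was unknown.

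Each summit carries the value of column 5, the authors' −log10 of a p-value (or of a q-value, which was not stated). It grows with read depth, so it was compared only within a list, and each value is also given as its rank, in percent from the top of its list. The lists held 16165 (ZNF143), 126181 (SP1), 39180 (NRF1) and 106578 (YY1) summits on the chromosomes used. A gene was said to hold a list when it had a summit of that list no further than 500 bp from the start of its annotated record, the 5′ end. Where several did, the one with the highest column 5 (the highest summit) stood for the gene. Offsets are positive downstream, along the gene's strand.

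YY1 and SP1 summits lay at the 5′ ends of most members, and 58 of 78 members (74.4%) held all 4 lists, against 28.1% of all protein-coding genes. A YY1 summit was found at 74 members (94.9%, all genes 57.8%), an SP1 summit at 74 (94.9%, all genes 59.1%), an NRF1 summit at 68 (87.2%, all genes 48.3%) and a ZNF143 summit at 60 (76.9%, all genes 31.7%). The lists differ in length, and with the same number of top summits (16165) taken from each, SP1 was found at 49 members (62.8%, all genes 32.6%) and all 4 lists at 37 (47.4%, all genes 18.1%). The 4 members without any summit (5.13%, all genes 37.3%) were MRPL28, MRPL37, MRPS22 and MRPS27. All genes include those that are silent in these cells, and a share of genes is not a replicate measurement. As a narrower background, chosen after the first counts were seen, 58 of the 68 members that held SP1, NRF1 and YY1 also held ZNF143 (85.3%), against 61.8% of the 9091 genes with those 3 lists. For NRF1 the same comparison gave 58 of 60 members (96.7%) and 92.6% of 6068 genes. For SP1 it gave 58 of 58 members (100%) and 98.9% of 5681 genes, and for YY1 58 of 58 (100%) and 99.3% of 5657. Against this background the shares with SP1 and YY1 were thus nearly equal in members and all genes.

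In windows of the same size centred 5 kb upstream and 5 kb downstream of the members' 5′ ends, a summit of a given list was found at 1 to 3 of 78 members. Over all genes those shares lay between 1.11% (ZNF143, downstream) and 7.90% (SP1, downstream).

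**Figure D1:**
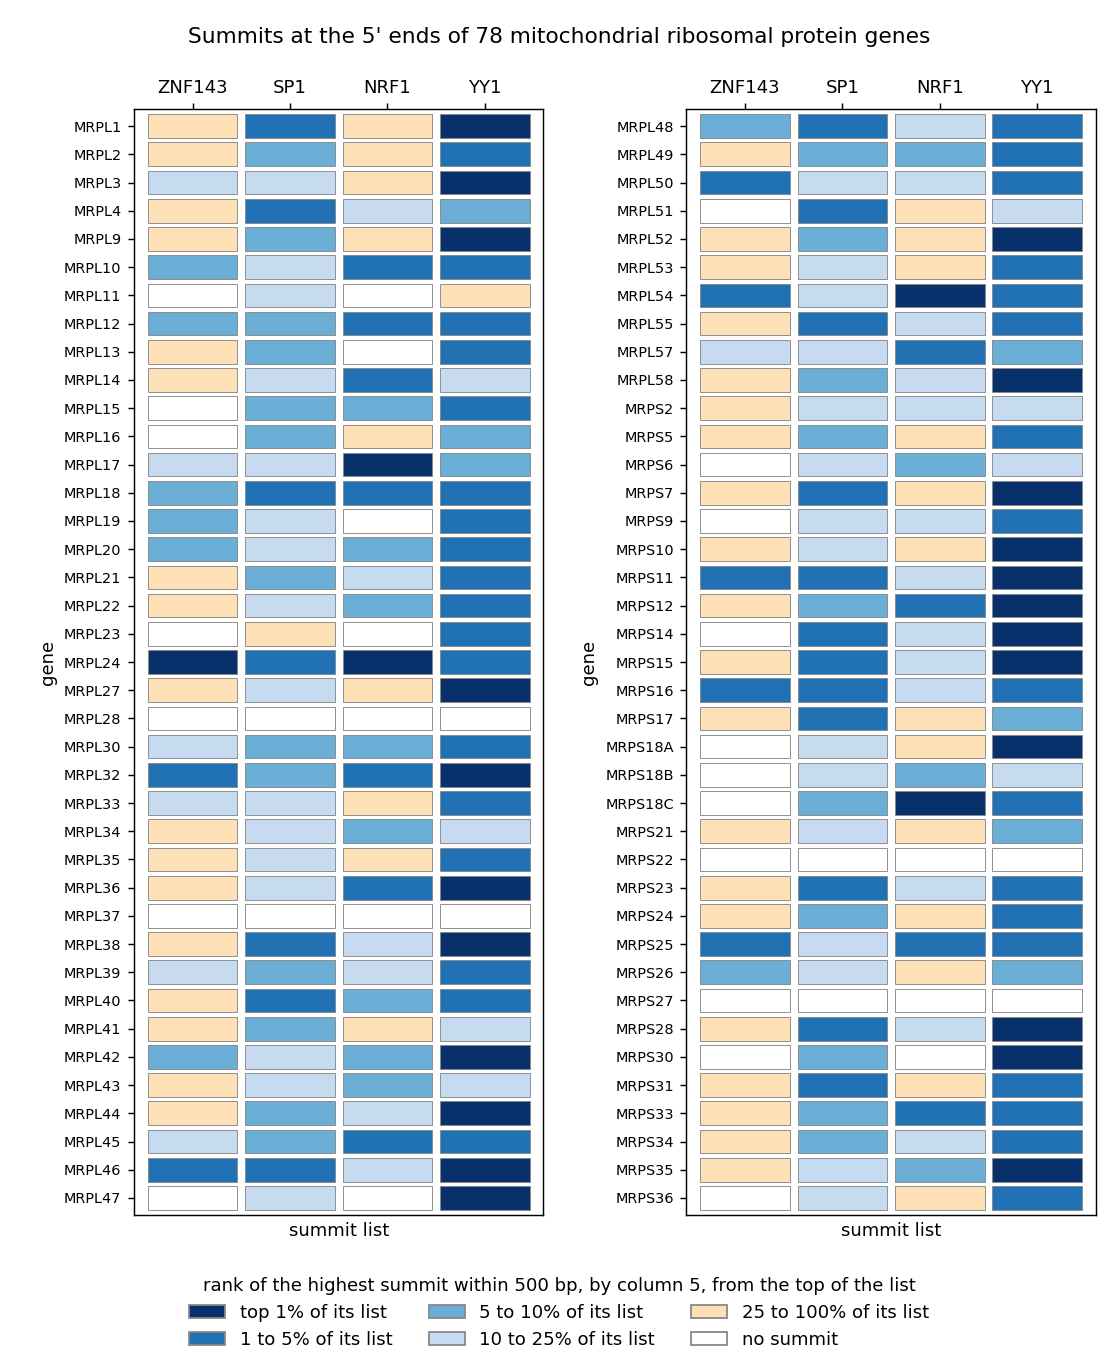
Each row is 1 of the 78 genes and each column 1 summit list; the colour gives the rank of the gene's highest summit within 500 bp of the 5′ end, from the top 1% of its list (darkest) to the lower 75% (orange), and white marks no summit. The YY1 columns hold most of the darkest cells, with 23 of the 78 genes in the top 1%, and the ZNF143 columns are mostly orange or white.

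Ranks in percent of each list were highest for YY1. The highest YY1 summit lay in the top 1% of its list at 23 members (29.5%), against 4.96% of all genes, and in the top 10% at 65 members (83.3%), against 28.5%. The median column 5 over the 74 members with YY1 was 1293, with quartiles of 319 and 2473 and a range of 13.7 to 8485, while over all 11546 genes with YY1 the median was 139. As ranks, the medians were the top 1.37% for the members and the top 10.2% for all genes. Within genes that held all 4 lists, the YY1 medians were 1.23% for 58 members and 5.04% for 5620 genes, and 19 of the 58 (32.8%) against 15.2% lay in the top 1%. In percent of its own list, YY1 had the best rank of the 4 lists at 40 of these 58 members (69.0%, all genes 46.3%). Such percents depend on list length, and the YY1 list held 106578 summits against 16165 for ZNF143. At MRPL10, YY1 in the top 1.88% was number 2003 of its list, while ZNF143 in the top 8.95% was number 1446.

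In the top 10% of the SP1 list lay 42 of 78 members (53.8%, all genes 26.7%). None lay in its top 1%, where the share of all genes was also small, at 2.38%. The closest were MRPL55 (top 1.50%), MRPS23 (1.63%) and MRPS15 (1.87%). The SP1 column 5 had a median of 289 over 74 members (quartiles 127 and 465, range 25.1 to 1210), and 197 over all genes with SP1. Of these members 60 (81.1%) had values from 100 to 1000, as had 59.7% of all genes with SP1.

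The ZNF143 and NRF1 values were split between low and high summits, in members and over all genes alike. The NRF1 column 5 was under 100 at 35 of 68 members (51.5%, all genes with NRF1 59.1%). It was at least 1000 at 22 (32.4%, all genes 25.1%), with 11 in between (16.2%, all genes 15.8%). Its median was 92.5 (quartiles 15.4 and 2258, range 3.13 to 20036) and 48.0 over all genes. This order of the medians turned under other settings, with 49.9 in members and 51.1 over all genes within 1000 bp, and 44.3 and 51.3 at the 5′ ends of canonical transcripts. In the top 1% of the NRF1 list lay 4 members (5.13%, all genes 1.81%), and in its top 10% lay 27 (34.6%, all genes 15.1%). The ZNF143 column 5 was under 100 at 38 of 60 members (63.3%, all genes with ZNF143 66.7%) and at least 1000 at 18 (30.0%, all genes 23.7%). Its median was 38.7 (quartiles 12.5 and 1896, range 2.11 to 27292) and 23.6 over all genes, which are ranks of the top 30.5% and 37.7%. In the top 1% of the ZNF143 list lay 1 member, MRPL24 (1.28%, all genes 0.741%), and 16 (20.5%, all genes 6.47%) lay in its top 10%.

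**Figure D2:**
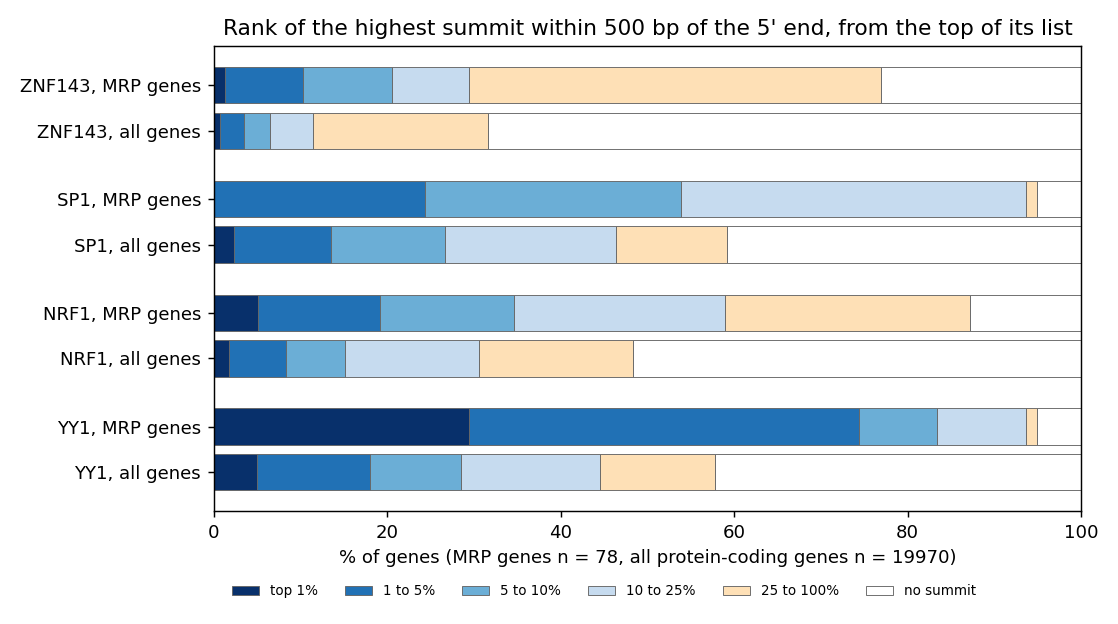
Bars give the percentage of genes by the rank of the highest summit within 500 bp of the 5′ end, for the 78 mitochondrial ribosomal protein (MRP) genes and for all 19970 protein-coding genes, 1 pair of bars per list. The top 1% covers 29.5% of MRP genes in the YY1 list and 0% in the SP1 list, while white, no summit, covers 23.1% of MRP genes in the ZNF143 list.

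The members with the highest column 5 in each list were largely different genes. For ZNF143 these were MRPL24 at 27292, MRPS25 at 10451 and MRPL50 at 9959. MRPL24, a large-subunit protein with a bacterial counterpart, also had the highest NRF1 value of the members, 20036 (top 0.0664% of the list), and an SP1 value of 1013 and a YY1 value of 1554. Its 4 summits lay together 263 to 380 bp downstream of the 5′ end of the gene record. The canonical transcript of MRPL24 starts 502 bp further downstream, and from there the same summits lay upstream, from −239 bp (NRF1) to −122 bp (SP1). MRPS25 and MRPL50 are proteins without a bacterial counterpart. At MRPS25 the NRF1 value was 6411 as well, whereas at MRPL50 it was 47.2.

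The next NRF1 values after MRPL24 were 19094 at MRPL54, a mitochondria-specific large-subunit protein, and 13439 at MRPS18C, a small-subunit protein that lacked ZNF143. MRPL17, with 10335, was the other member in the top 1% of the NRF1 list. For SP1 the highest values were 1210 at MRPL55, 1136 at MRPS23 and 1030 at MRPS15. For YY1 they were 8485 at MRPS15, 7691 at the promoter shared by MRPL46 and MRPS11, and 5410 at MRPL1, a protein of the mobile L1 stalk. MRPS15, the mitochondrial form of a bacterial small-subunit protein that binds ribosomal RNA, was thus among the 3 highest of both SP1 and YY1, and its ZNF143 and NRF1 values were 39.3 and 38.7.

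The YY1 consensus, searched as AANATGGCG on both strands, holds the letters ATG. The 500 bp on either side of the 5′ end held it at 20 members (25.6%), against 7.54% of all genes. Cytosolic ribosomal protein genes were close to the members, with 18 of 86 (20.9%). Of 30 genes for assembly of the mitochondrial ribosome and modification of its RNA, 7 held it (23.3%). So did 3 of 5 proteins of this ribosome with other symbols, and 0 of 13 mitochondrial translation factors. In 14 of the 20 members with a copy (70.0%) the ATG of a copy was an annotated start codon of the gene, against 412 of the 1505 genes with a copy (27.4%). As a share of all genes these are 17.9% of members and 2.06% of protein-coding genes. The start codon comparison was added after the positions of the copies were seen. The 8 such members with the highest YY1 column 5 are printed below 5′ to 3′ on the gene's strand (hg38), with the consensus in capitals, because they show the start codon inside the consensus.
MRPL46 (chr15:88467362-88467390, minus strand): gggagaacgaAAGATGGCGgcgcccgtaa
MRPL1 (chr4:77862836-77862864, plus strand): cggagtgcccAACATGGCGgcggccgtaa
MRPL9 (chr1:151763464-151763492, minus strand): tgtgcctgtgAACATGGCGgcgcccgttg
MRPS14 (chr1:175023393-175023421, minus strand): tgtagcggacAACATGGCGgccttcatgc
MRPS10 (chr6:42217834-42217862, minus strand): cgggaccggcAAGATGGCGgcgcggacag
MRPS30 (chr5:44808950-44808978, plus strand): atcgcgggcaAAGATGGCGgcggccaggt
MRPL38 (chr17:75904860-75904888, minus strand): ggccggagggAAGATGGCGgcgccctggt
MRPS18A (chr6:43687764-43687792, minus strand): taggtttttgAAGATGGCGgccctcaagg

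YY1 summits lay over or close to these copies. The distance from the middle of the consensus to the highest YY1 summit was 17 bp at MRPL46 (column 5 of 7691), 21 bp at MRPL1 (5410), 2 bp at MRPL9 (5210) and 4 bp at MRPS14 (4554). It was 11 bp at MRPS10 (4063), 60 bp at MRPS30 (2645), 34 bp at MRPL38 (2200) and 8 bp at MRPS18A (1910). The other 6 members with the consensus at the start codon were MRPL32 (1777), MRPL22 (1765), MRPS24 (1616), MRPL50 (1503), MRPS9 (1128) and MRPS18B (86.2), where the values are again the YY1 column 5. At 10 of the 14 (71.4%) the summit lay within 50 bp of the copy, against 228 of 403 genes (56.6%) with such a copy and a YY1 summit. Of the 14, 9 (64.3%) lay in the top 1% of the YY1 list, and of those 403 genes 186 did (46.2%). The median column 5 was 2055 for the 14 members and 1627 for the 403 genes.

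Of the 23 copies of the YY1 consensus at members, 14 (60.9%, all genes 36.1%) had their middle from 0 to 100 bp downstream of the 5′ end, and all 14 read on the strand of the gene. Among all genes 75.9% of the copies in that stretch did so. The 3 highest members with YY1 differed in this respect: MRPL46 and MRPL1 held a copy, while MRPS15, with the highest YY1 value of the members, held none within 50 bp of its summit. Of the 74 members with YY1, 13 had an exact copy within 50 bp of the highest summit, and their median column 5 was 4063, against 821 for those without.

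**Figure D3:**
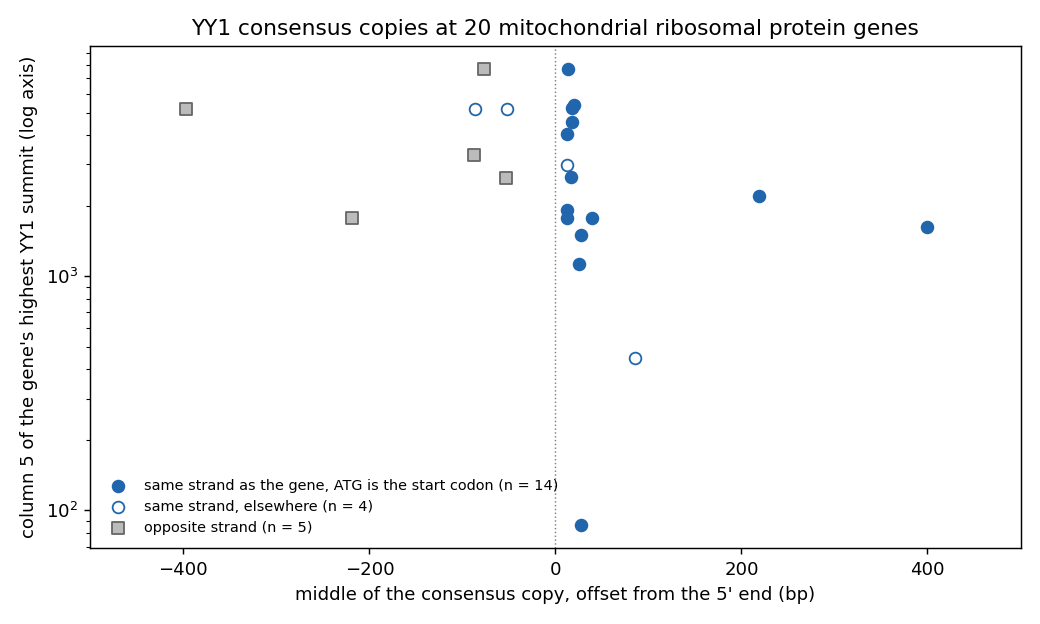
Points are the 23 copies of the YY1 consensus at 20 members, by the offset of their middle from the 5′ end of the gene record (x axis, bp) and the column 5 of the gene's highest YY1 summit (y axis, log scale). The filled circles, 14 copies whose ATG is the start codon, gather just downstream of the 5′ end, and 2 of them lie further downstream, at 219 bp (MRPL38) and 399 bp (MRPS24).

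The exact consensus of each factor was also searched for at the highest summits. The ZNF143 consensus (CCCA, any 2 bases, AT, any base, C) lay within 50 bp of the highest ZNF143 summit at 7 of 60 members (11.7%, all genes 7.64%). The SP1 consensus (GGGCGG) was there at 25 of 74 (33.8%, all genes 43.4%), the NRF1 consensus (GCGC, any base, TGCGC) at 11 of 68 (16.2%, all genes 17.5%), and the YY1 consensus at 13 of 74 (17.6%, all genes 6.56%). Both strands were searched, and equal windows placed 400 bp up- and downstream of the members' summits held the consensus in 2 of 120 cases for ZNF143, 21 of 148 for SP1, 0 of 136 for NRF1 and 0 of 148 for YY1. The members' share was under that of all genes for SP1, near it for NRF1, above it for YY1 and, on 7 members only, above it for ZNF143. With 1 mismatch allowed, the shares were 36.7% of members and 36.8% of all genes for ZNF143, 42.6% and 40.3% for NRF1, and 33.8% and 17.5% for YY1. A match is a description of the sequence and does not show a binding site.

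Column 5 of ZNF143 and NRF1 was far higher where the exact consensus lay at the summit. The median was 5621 at the 7 members with the ZNF143 consensus and 37.6 at those without it, and for NRF1 it was 5131 at the 11 with and 38.7 at those without. All genes had the same order, 2542 against 19.9 for ZNF143 and 4914 against 27.2 for NRF1. For SP1 the medians were 320 and 259 in the members. The ZNF143 copies lay at MRPL24, MRPL46 and MRPS11 (which share 1 copy), MRPS16, MRPL42, MRPL10 and MRPL14. MRPL14 was the exception, with a ZNF143 column 5 of 5.61 beside its copy, against 2246 or more at the other 6. The 3 copies with the highest ZNF143 value are printed below on the gene's strand, where capitals mark the consensus or its reverse complement.
MRPL24 (chr1:156741176-156741205, minus strand): gactacaactCCCAGCATGCtgagaggtaa
MRPL46 (chr15:88467378-88467407, minus strand): gagccgcggtGCATTGTGGGagaacgaaag
MRPS16 (chr10:73252676-73252705, minus strand): tcaccgtgttGCATTGTGGGaagtataggg

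The MRPL24 copy read on the gene's strand and lay in an annotated untranslated region, 395 to 404 bp downstream of the 5′ end of the gene record, which is −107 to −98 bp from that of the canonical transcript. The copies of MRPL46 (−7 to 2 bp) and MRPS16 (−2 to 7 bp) read on the opposite strand and spanned the 5′ end of the gene record. From the canonical 5′ ends they lay at −9 to 0 bp and at −51 to −42 bp. The 11 members with the NRF1 consensus at the NRF1 summit were MRPL54, MRPL17, MRPS12, MRPS33, MRPL45, MRPL14, MRPL57, MRPL43, MRPL30, MRPS6 and MRPS9, and among them were MRPS12, a protein of the decoding centre, and MRPL45, which holds the ribosome at the inner membrane. The 3 NRF1 copies with the highest column 5 are given on the gene's strand, capitals marking the consensus or its reverse complement.
MRPL54 (chr19:3763020-3763049, plus strand): tggacccaggGCGCAGGCGCcagcttgggg
MRPL17 (chr11:6683402-6683431, minus strand): aggctctgatGCGCATGCGCaaacacgttc
MRPS12 (chr19:38930444-38930473, plus strand): cccccggccgGCGCAGGCGCactcacgatc

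The MRPL54 copy lay in an intron, 348 to 357 bp downstream of the 5′ end, with the NRF1 summit at 355 bp. Those of MRPL17 (−81 to −72 bp) and MRPS12 (−490 to −481 bp) were upstream of their genes, with summits at −62 and −454 bp. MRPL24 and MRPS18C, with the highest and the third highest NRF1 values, had no exact copy at their NRF1 summits.

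The median YY1 value was lower in the few members with the NRF1 consensus than in the others. The 12 members with a copy within 500 bp of the 5′ end had a median YY1 column 5 of 270, and the 62 without had 1488. The 12 ranged from 46.3 (MRPS6) to 2678 (MRPS12), inside the range of those without. Over all genes the order was reversed, with 178 in 1841 genes with a copy and 132 in 9705 without. Another combination also had a different order in members and all genes. The median NRF1 value was 86.6 in 55 members with and 287 in 13 without the SP1 consensus. Over all genes it was 51.7 in 8928 with and 16.6 in 715 without. The value of 287 belongs to a summit shared by MRPL46 and MRPS11, both among the 13. These contrasts were picked from all pairs of a consensus and a list, and they rest on few members.

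Within 500 bp of the 5′ end, the ZNF143 consensus was found at 13 members (16.7%, all genes 14.1%), the SP1 consensus at 64 (82.1%, all genes 72%), and the NRF1 consensus at 12 (15.4%, all genes 10.2%). The ETS core CCGGAAG, to which no antibody here was directed and which is bound by the family that includes GABPA, was found at 33 (42.3%, all genes 20.8%). Related genes held the ETS core at like or higher shares. These were 32 of 86 cytosolic ribosomal protein genes (37.2%), 16 of 30 assembly and RNA modification genes (53.3%) and 9 of 13 mitochondrial translation factors (69.2%). GC content and CpG density, which these letters follow in part, had medians of 56.8% and 0.771 (observed over expected) in members, against 59.2% and 0.688 over all genes.

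To show the layout of whole promoters, the 150 bases upstream of 3 members are printed below on the gene's strand. Capitals mark the exact copies of the 5 consensus sequences or of their reverse complements. The 3 stretches come from RefSeq (GRCh38.p14), where 69 of 78 members were matched by symbol. They were chosen from members without an annotated exon in the stretch: MRPL17 for an NRF1 copy, MRPL42 for a ZNF143 copy and MRPS14 for SP1 copies at a gene without ZNF143.
MRPL17 (chr11:6683341-6683490, minus strand): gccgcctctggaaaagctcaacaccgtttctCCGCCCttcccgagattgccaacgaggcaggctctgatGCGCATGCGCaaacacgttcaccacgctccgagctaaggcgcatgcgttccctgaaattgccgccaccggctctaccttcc
MRPL42 (chr12:93467364-93467513, plus strand): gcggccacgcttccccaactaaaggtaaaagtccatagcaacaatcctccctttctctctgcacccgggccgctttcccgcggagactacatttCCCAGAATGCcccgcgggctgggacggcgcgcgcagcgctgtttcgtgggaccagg
MRPS14 (chr1:175023426-175023575, minus strand): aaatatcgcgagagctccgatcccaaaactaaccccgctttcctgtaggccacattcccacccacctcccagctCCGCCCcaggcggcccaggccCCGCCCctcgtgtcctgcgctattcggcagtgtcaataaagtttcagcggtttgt

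At MRPL17 the NRF1 summit (column 5 of 10335) lay at −62 bp beside its NRF1 copy, the ZNF143 summit was further upstream at −298 bp (221), and SP1 (145) and YY1 (212) lay at 95 and 126 bp. At MRPL42 the ZNF143 summit (4514) lay at −36 bp, downstream of the copy at −56 to −47 bp. SP1 (114) lay at 37 bp, NRF1 (1474) at −18 bp and YY1 (2988) at 88 bp. At MRPS14 the SP1 summit (529) lay at −32 bp, NRF1 (40.9) at −42 bp and YY1 (4554) at 14 bp.

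YY1 summits lay downstream of those of the other factors. The highest ZNF143 summit lay at a median of −12 bp (quartiles −36 and 77.5), NRF1 at −9.5 bp (−71.8 and 46.3) and SP1 at −6 bp (−56.5 and 42.3), whereas YY1 lay at 41 bp (−0.75 and 112.3). Over all genes the medians were −19, −29, −38 and 60 bp. YY1 was downstream of the 5′ end at 54 of 74 members (73.0%, all genes 61.5%), and ZNF143 at 26 of 60 (43.3%, all genes 43.9%). Annotated coding sequence of the gene held the highest YY1 summit at 23 members (31.1%, all genes with YY1 12.4%), untranslated regions at 22 (29.7%, all genes 32.3%) and sequence upstream of the gene at 19 (25.7%, all genes 38.3%). Upstream of the gene lay 34 of 60 ZNF143 summits (56.7%, all genes 55.9%), 38 of 74 SP1 summits (51.4%, all genes 63.2%) and 37 of 68 NRF1 summits (54.4%, all genes 59.7%).

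Summits of members lay close to the 5′ end. Within 100 bp of it were 44 of 60 ZNF143 summits (73.3%, all genes 47.4%), 59 of 74 SP1 summits (79.7%, all genes 52.8%), 44 of 68 NRF1 summits (64.7%, all genes 46.7%) and 47 of 74 YY1 summits (63.5%, all genes 35.2%). At the edge of the window, MRPS33 held YY1 at 494 bp (column 5 of 821) and MRPS18B held SP1 at −489 bp (65.5). Just outside it lay ZNF143 at MRPS9 (521 bp, 10.6) and at MRPL51 (577 bp, 371), NRF1 at MRPS30 (−532 bp, 2.94) and at MRPL11 (−535 bp, 6.68), YY1 at MRPL28 (617 bp, 35.3) and SP1 at MRPL28 (670 bp, 305).

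**Figure D4:**
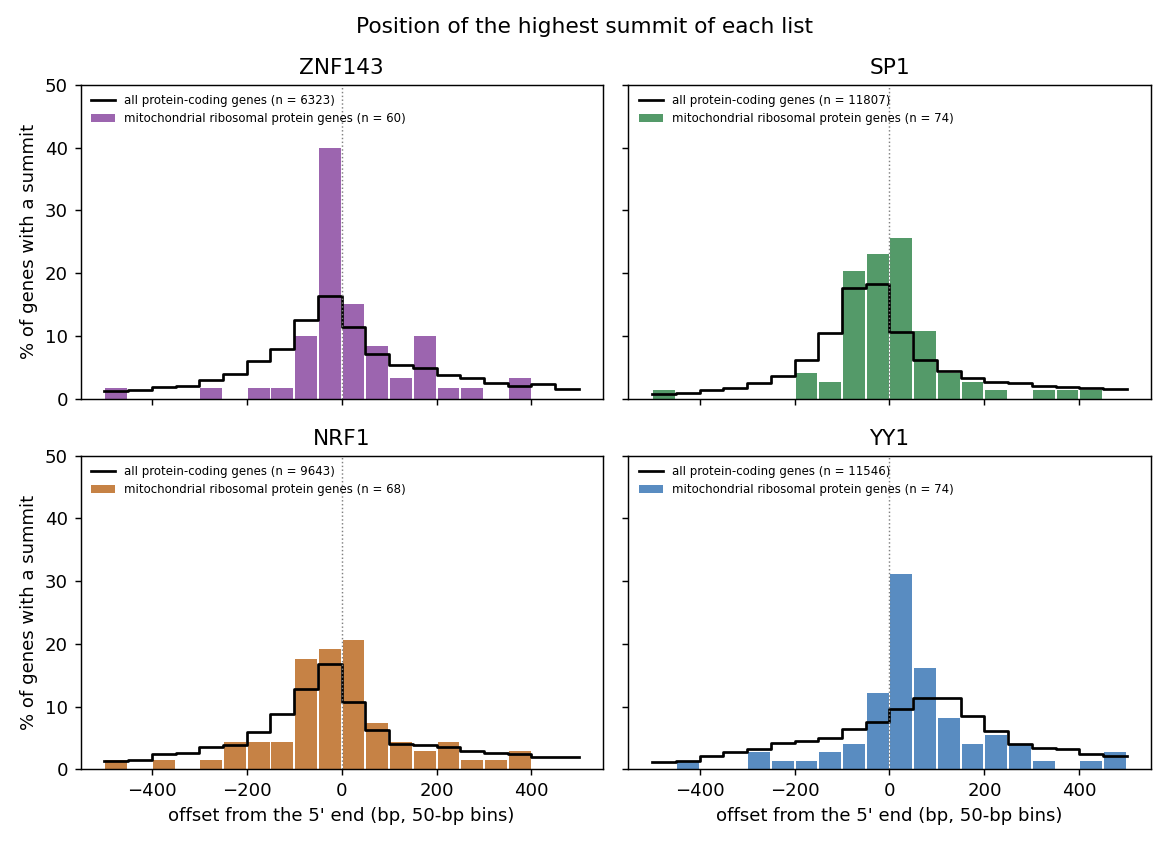
Coloured bars give the members and the black line all protein-coding genes, as the percentage of genes with a summit of the list whose highest summit falls in each 50-bp bin of the offset from the 5′ end (bp, positive downstream). ZNF143 bars peak just upstream of 0 and YY1 bars just downstream of it, around medians of −12 and 41 bp.

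The distance between the highest summits of 2 lists at the same member was shortest for ZNF143 and SP1, with a median of 29 bp (60 members, all genes 55 bp), and 41 of the 60 pairs (68.3%, all genes 47.7%) lay within 50 bp. YY1 lay downstream of SP1 at 58 of 74 members (78.4%, all genes 62.6%), and downstream of NRF1 at 47 of 68 (69.1%, all genes 60.1%). NRF1 and YY1 lay furthest apart, with a median of 120 bp (all genes 152 bp).

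Both subunits followed the pattern of the whole family in the share of genes with each list. ZNF143 was found at 41 of 51 large-subunit genes and 19 of 26 small-subunit genes, SP1 at 49 and 24, NRF1 at 43 and 24, and YY1 at 49 and 24. All 4 lists were held by 39 large-subunit genes (76.5%) and 19 small-subunit genes (73.1%). The median YY1 column 5 was 1381 in the large and 975 in the small subunit, and 15 and 8 genes lay in the top 1%. NRF1 had medians of 274 and 42.6, over ranges of 7.06 to 20036 and 7.06 to 13439 that overlapped. The 46 proteins with a bacterial counterpart and the 31 that are mitochondria-specific also had like shares, with all 4 lists at 34 (73.9%) and 24 (77.4%), and YY1 medians of 1128 and 1442. MRPS36, which belongs to neither subunit, held SP1 (74.1), NRF1 (3.13) and YY1 (448) and lacked ZNF143.

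ZNF143 was lacking at 18 members, the most of the 4 lists as deposited; with equal list lengths SP1 was held by fewer members (49) than ZNF143 (60). In 10 of them it was the sole list lacking: MRPL15, MRPL16, MRPL51, MRPS6, MRPS9, MRPS14, MRPS18A, MRPS18B, MRPS18C and MRPS36. All 3 members of the S18 family were in this set; their proteins are related copies that take different places in the ribosome. Of all genes 17.4% had this combination, against 12.8% of members. At these 10, NRF1 ranged from 3.13 (MRPS36) to 13439 (MRPS18C) and YY1 from 46.3 (MRPS6) to 4554 (MRPS14). Another 4 members held SP1 and YY1 alone (5.13%, all genes 7.40%): MRPL11, which forms part of the stalk base, MRPL23, MRPL47 and MRPS30. Their YY1 values were 13.7, 419, 4129 and 2645. MRPL13 and MRPL19 (2.56%, all genes 2.24%) lacked NRF1 alone, and their ZNF143 values were 12.5 and 3590.

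The 4 members without any summit have a gene record that starts upstream of the transcript that Ensembl marks as canonical. The canonical 5′ end lay 751 bp downstream at MRPL28, 1477 bp at MRPS27, 16126 bp at MRPL37 and 338214 bp at MRPS22. At the canonical 5′ ends MRPL37, MRPS22 and MRPS27 held all 4 lists, with YY1 values of 3415, 3189 and 2673 and ZNF143 values of 3996, 7613 and 2.48. MRPL28 held SP1 (305) and YY1 (35.3). MRPL11, 27890 bp apart, gained ZNF143 (12184) and NRF1 (36.4) there and had a YY1 value of 6576. MRPL51, 579 bp apart, gained ZNF143 (371) at −2 bp. MRPL18, 655 bp apart, went the other way and lost NRF1, which had a value of 6024 at the gene record. Over the 78 members, both 5′ ends were within 50 bp of each other at 53, 51 to 500 bp apart at 14 and more than 500 bp apart at 11.

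With canonical 5′ ends every one of the 78 members held SP1 and YY1 (all genes 64.5% and 63.1%), while 65 held ZNF143 (83.3%, all genes 34.8%) and 71 held NRF1 (91.0%, all genes 52.8%). All 4 lists were then held by 62 (79.5%, all genes 31.6%), 3 lists by 12 and 2 by 4. YY1 again lay downstream of the others, with median offsets of 28.5 bp for YY1, −35 bp for ZNF143, −49 bp for SP1 and −62 bp for NRF1. Over all genes these were 30, −59, −73 and −66 bp, so that YY1 lay at nearly the same place in members and all genes with these ends.

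Members often lay beside another gene. The 5′ end of another protein-coding gene was within 1000 bp at 30 members (38.5%, all genes 17.4%), and at 17 (21.8%, all genes 7.98%) the nearest one was head to head, on the opposite strand and pointing away. A summit there can belong to either gene. MRPL46, a large-subunit protein, and MRPS11, a small-subunit protein, were the 1 pair of members in a shared window, with 5′ ends 63 bp apart. They shared the same highest summits, ZNF143 at 9547, SP1 at 478, NRF1 at 287 and YY1 at 7691. Other partners were FAU, a cytosolic ribosomal protein gene (6 bp from MRPL49), the complex I subunit genes NDUFB5 (41 bp from MRPL47) and NDUFS6 (41 bp from MRPL36), and SARS2, the mitochondrial seryl-tRNA synthetase (181 bp from MRPS12). TCP1, a subunit of the cytosolic chaperonin, lay 109 bp from MRPL18.

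Median NRF1 values differed with this arrangement, over ranges that overlapped. The median NRF1 column 5 was 2896 in 16 head-to-head members and 39.8 in the 42 members with NRF1 and no other 5′ end within 1000 bp. The values ran from 8.77 (MRPL27) to 19094 (MRPL54) in the first group and from 3.13 (MRPS36) to 20036 (MRPL24) in the second. MRPL46 and MRPS11 brought the same NRF1 summit into the 16. Over all genes the medians were 97.4 and 41.9. The exact NRF1 consensus lay at the summit of 4 of the 16 (25%, all head-to-head genes with NRF1 22.6%) and 4 of the 42 (9.52%, all genes 16.3%). The medians of the other lists for the 2 arrangements were 220 and 39.3 (ZNF143), 294 and 285 (SP1) and 1604 and 1328 (YY1).

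Genes that act with the mitochondrial ribosome held the lists at like shares. Of 5 proteins of this ribosome that carry other symbols, AURKAIP1, CHCHD1, GADD45GIP1 and PTCD3 held all 4 lists and DAP3 lacked NRF1, and their median YY1 column 5 was 1688. Of 13 mitochondrial translation factors, 9 held all 4 lists and the other 4 held 3, with SP1 and YY1 at all 13. Their median YY1 value was 354, lower than the 1293 of the members, and none lay in the top 1%. Among these, TUFM, the mitochondrial elongation factor Tu, had a YY1 value of 893. Of 30 genes for assembly of this ribosome and modification of its RNA, 22 held all 4 lists, MALSU1 held ZNF143 alone, and GTPBP10 and RPUSD3 held none. Their median YY1 value was 963, with 10 of 30 in the top 1%.

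The 86 genes of cytosolic ribosomal proteins gave a second family of like kind. ZNF143 was found at 68 (79.1%), SP1 at 74 (86.0%), NRF1 at 70 (81.4%) and YY1 at 74 (86.0%), and 59 (68.6%) held all 4 lists. Their median column 5 was 80.9 in the ZNF143 list, 455 in the SP1 list, 56.9 in the NRF1 list and 695 in the YY1 list, so that SP1 was higher and YY1 lower than the 289 and 1293 of the mitochondrial family. In the top 1% of the YY1 list lay 16 of the 86 (18.6%).

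**Figure D5:**
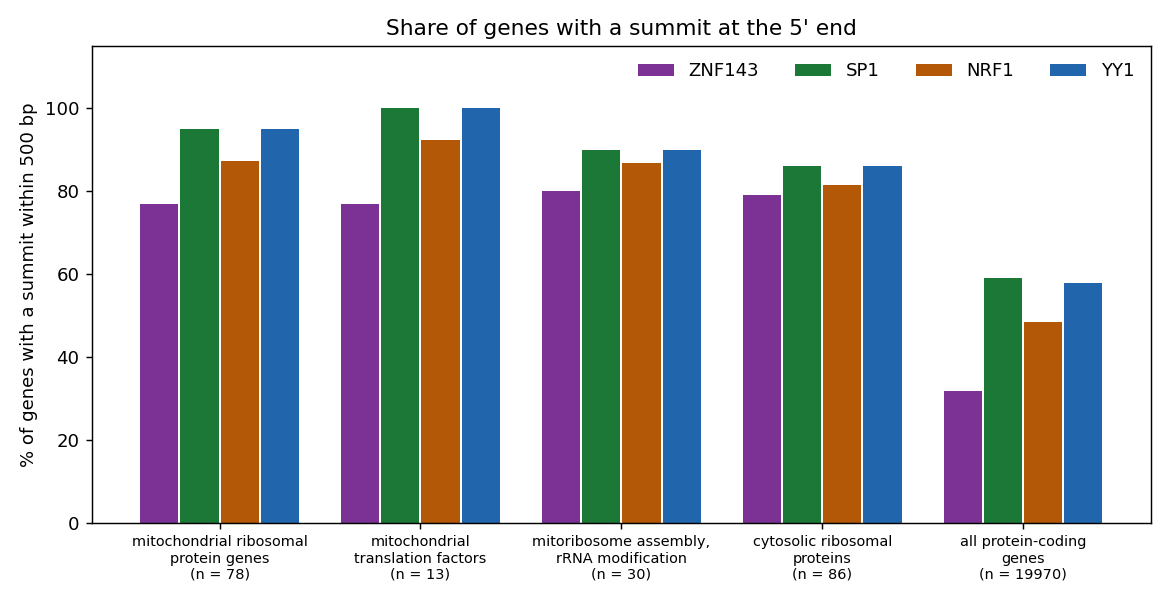
Bars give the percentage of genes in each list of genes with a summit of ZNF143, SP1, NRF1 or YY1 within 500 bp of the 5′ end. The 4 lists of ribosome-related genes all lie between 76.9% and 100%, and all protein-coding genes between 31.7% and 59.1%.

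The lists were also read for sites that could be missing or counted elsewhere. Peak numbers were skipped in the SP1 list (1315 numbers), the NRF1 list (1380) and the YY1 list (11467). Runs of at least 10 skipped numbers were found in the NRF1 list (18 runs) and the YY1 list (43 runs). No member lay in such a run. Whether members lay in shorter gaps, the sole kind in the SP1 list, was not tested. Of the 4 members whose 5′ end has an exact copy, with 50 bases to either side, on another contig of hg38, MRPL45 had a copy with a ZNF143 summit. MRPL23, MRPS18B and MRPS36, which lacked ZNF143 on their chromosomes, had no ZNF143 summit at their copies either.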

How the data were processed

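ChIP-seq summits for ZNF143, SP1, NRF1 and YY1 in HEK293T cells were analysed from the 4 deposited lists, 1 per target. Reads had been handled with cutadapt, Bowtie2, SAMtools 1.16.1, MACS3 and bedtools on hg38, per the submitters' processing notes; their settings and the pooling of samples are not given in the sources used here. Each deposited summit has a value in column 5 that, by its layout and range, is a −log10 p-value or the same of a q-value, and which of these is not stated. Depth was unknown. The lowest value was 2.00 in each list.

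Summits on chromosomes 1 to 22 and X were joined to GENCODE 44 genes with Python 3.11.15 and pandas 2.3.3, and hg38 sequence was read with pysam 0.24.0. Functions were tested on simulated data. Because no list gives a value per sample, no test was run, and groups were not compared. The members and the gene lists were chosen with earlier results of these data known. Genes were named by rule: the 3 highest per list, those without any list, those lacking 1 list, those sharing a window, and up to 3 per factor with a consensus copy at the summit. MRPL17, MRPL42 and MRPS14 promoters, the start codon comparison, the shares among genes holding other lists, and other genes named beside a count were added after values were seen. Alternatives changed the distance, the 5′ end, the part of the list, the members and the consensus. Signal tracks and mock samples were not analysed here.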

Additional observations from a re-analysis of the deposited data

How the results depend on the processing

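Of 96 recomputed values for 23 results, 73 stayed within 1.5 times the reported value (for offsets, within 25 bp), 23 moved further and 0 reversed. Counts and medians of column 5 cannot change sign, so only an offset could reverse. The order of members against all genes was not among these results. For the NRF1 median it did turn, with 49.9 against 51.1 within 1000 bp and 44.3 against 51.3 at canonical 5′ ends. Values inside that limit still shifted: the top 50% of each list left 43 members with all 4 lists, and canonical 5′ ends put the median ZNF143 offset at −35 bp. Without the 30 members near another 5′ end, 48 remained by construction, of which 37 held ZNF143, 45 SP1, 42 NRF1, 45 YY1 and 36 all 4 lists. With equal list lengths (16165 summits each), SP1 fell to 49 members and all 4 lists to 37. Members without any list numbered 2 within 1000 bp and 0 with canonical 5′ ends. Canonical ends moved the median offset of SP1 to −49 bp and of NRF1 to −62 bp, and the median NRF1 column 5 to 44.3, which was 49.9 within 1000 bp. The consensus at the summit was counted at 4 members for ZNF143 and 16 for SP1 within 25 bp, at 42 for SP1 within 100 bp, and with 1 mismatch at 22 for ZNF143, 29 for NRF1 and 25 for YY1. Within 500 bp of the 5′ end, 1 mismatch gave 72 members for ZNF143, 41 for NRF1, 56 for YY1 and 78 for the ETS core. Apart from the smaller sets and looser matches, which change counts by construction, the cause was not tested. No paired analysis was possible because the lists give no value per sample, and replicates could not be left out for the same reason. The −log10 values rise with read depth, which was unknown.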
